A study of Arabidopsis thaliana with 4 samples.

Results

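The WRKY, NAC and MYB transcription factors are large plant families, each named after its DNA-binding domain. They were followed in the endosperm of Arabidopsis thaliana, the nutritive tissue beside the embryo in the seed. The members were taken by gene symbol: each probe with a value on all 4 arrays whose symbol in the platform's gene table was MYB, NAC, ANAC or WRKY and a number. This gave 7 genes, with 1 probe each, among the 19449 probes that had a value on every array. WRKY contributed 6 (WRKY6, WRKY20, WRKY29, WRKY42, WRKY47 and WRKY68), NAC contributed 1 (NAC014), and MYB contributed 0. For scale, RefSeq (assembly TAIR10.1) gives such a symbol to 67 WRKY, 81 NAC and 116 MYB genes. The platform's table gives a symbol to 14539 of the 26912 probes, but 12984 of these symbols are locus identifiers only, which the rule cannot match. Over probes with a value on any number of arrays, including none, the platform's symbols gave 9 family probes, and RefSeq symbols also gave 9. Probes of other members may be among those without a symbol, which were not analysed here.

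Endosperm was collected at 4 days after pollination by laser microdissection from silique sections, as 3 samples. Each was set against 1 common RNA from the silique tissue left after the cutting, scraped from a single slide; one label calls this RNA whole silique. The reference can therefore hold silique wall, seed coat and embryo, and any endosperm the laser left behind. The labels give no genotype, ecotype or treatment, nor do they say whether different plants gave the 3 samples. The p-values cover the spread between these samples alone, which may be technical. Endosperm carried Cy3 for replicate 1, Cy5 for replicate 3, and each dye once for replicate 2, which makes 4 two-colour arrays.

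WRKY proteins bind the W-box, a short promoter element with the core TTGAC, and many act in defence, senescence and nutrient responses, often downstream of mitogen-activated protein kinases. In the seed the family is known for WRKY10 (MINI3), which acts with IKU1 and IKU2 in endosperm growth, and for WRKY44 (TTG2), which acts in the seed coat and in trichomes. NAC proteins share an N-terminal DNA-binding domain and are known for roles in organ boundaries, secondary walls and senescence, and some are held at membranes until released. R2R3 MYB proteins act with bHLH and WD40 partners in flavonoid synthesis and in epidermal cell fate. No probe was matched by name to WRKY10 or WRKY44, and probes without a symbol were not searched.

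The values are log ratios, taken as log2 and as endosperm over reference. Neither the log base nor the numerator is stated in the sources used here. Endosperm is the likely numerator, since the median of the 10 measured of 22 listed endosperm marker genes was above 0 on every array. It was 1.03, 1.21, 1.17 and 1.13 on the arrays of replicate 1, replicate 2 with Cy3, replicate 2 with Cy5 and replicate 3. Of these 10 genes, 8 were called higher by the limma test described below, where 32.0% of all probes were. The other 2, AGL96 (mean -0.43, below 0 on all 4 arrays) and IKU1 (0.10), did not pass. After median centring 7 were called higher and 1 lower. With the other numerator every sign below would turn, and with another log base every fold change below would differ. The same 4 arrays held 21829, 22035, 23171 and 22902 values. Pearson's r between arrays over the compared probes lay between 0.87 and 0.92, across probes, which are not independent replicates. Markers of other tissues were thin. ALC, which acts in fruit dehiscence, was the 1 measured of 12 silique wall and vascular genes. It was lower in endosperm (log2 ratio -2.40). Of 3 measured seed coat genes, INO (-0.73) was lower, while BAN (-0.39) and DFR (0.15) did not pass. The ratios of INO went with the dye. They were -1.05 and -1.03 on the Cy3 arrays of replicates 1 and 2, and -0.17 and -0.55 on the Cy5 arrays of replicates 2 and 3. Over all probes 25.5% were called lower, so 1 of 3 is no result about the seed coat genes. For 0 of 11 embryo genes was a probe matched by name.

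Among the 6 WRKY genes, WRKY68 and WRKY29 were higher in endosperm and WRKY6 and WRKY42 were lower, while WRKY20 and WRKY47 did not pass the test. The test was limma on the 3 replicates against a ratio of 0, with Benjamini-Hochberg adjustment over all 19449 probes and adjusted p under 0.05. Over all these probes 32.0% were called higher and 25.5% lower, so 2 of 6 in each direction is close to the background and is no result about the family. The median log2 ratio of the 6 genes was -0.19, beside 0.11 over all probes. Because RNA from many cells was pooled in each sample, a different number of cells of a type and a different amount of RNA per cell cannot be told apart in any of these ratios.

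**Figure D1:**
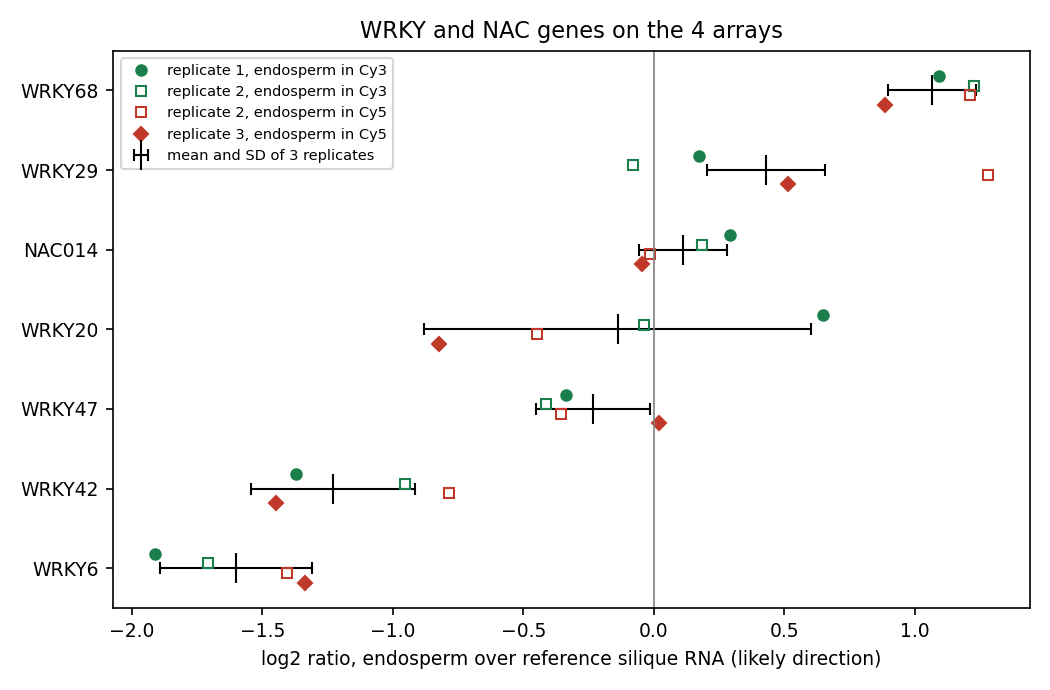
Log2 ratios (endosperm over reference, likely direction) of the 6 WRKY genes and NAC014 on each of the 4 arrays, with the mean and SD of the 3 replicates as black bars; colour gives the dye of endosperm and symbol the replicate. WRKY68 lies above 0 and WRKY42 and WRKY6 lie below 0 on all 4 arrays, whereas the points of WRKY29, NAC014, WRKY20 and WRKY47 lie on both sides of 0.

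WRKY6 (AT1G62300) had the lowest ratio of the family. It encodes a group IIb factor known from senescence, pathogen response and phosphate transport, where it represses PHO1. Its log2 ratio was -1.91 in replicate 1, -1.71 and -1.41 in replicate 2 (Cy3 and Cy5), and -1.33 in replicate 3. All 4 arrays were low, and they spanned less than 0.6 on the log2 scale. The mean was -1.60 ± 0.29 (SD, n = 3), or 3.03-fold lower in endosperm (limma adjusted p = 0.000487; 95% interval 2.34-fold to 3.93-fold). Of all compared probes, 7.71% had a mean ratio as low or lower.

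WRKY42 (AT4G04450) is a close relative of WRKY6 in group IIb and is also known from phosphate homeostasis. It was at -1.37 in replicate 1, at -0.95 and -0.78 in replicate 2 (Cy3 and Cy5), and at -1.45 in replicate 3. Replicate 2 was the least low with either dye, and every array lay below 0. The mean was -1.23 ± 0.31 (SD, n = 3), or 2.34-fold lower (limma adjusted p = 0.00132; 95% interval 1.79-fold to 3.07-fold). The ratios of WRKY6 and WRKY42 overlapped between arrays, and cross-hybridisation between these relatives was not measured.

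WRKY47 (AT4G01720), the third group IIb gene measured, had ratios nearer 0. It was at -0.34 in replicate 1, at -0.41 and -0.35 in replicate 2, and at 0.02 in replicate 3. Replicates 1 and 2 were slightly low and replicate 3 was at the level of the reference. The mean of -0.23 ± 0.22 (SD, n = 3) did not pass (limma adjusted p = 0.195), with a 95% interval on the log2 scale from -0.57 to 0.11. The 3 group IIb genes thus comprised 2 that were called lower and 1 that was not; whether they differ from each other was not tested.

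WRKY68 (AT3G62340), a group IIc gene for which few functions are described, had the highest ratio. It was at 1.09 in replicate 1, at 1.23 and 1.21 in replicate 2 (Cy3 and Cy5), and at 0.89 in replicate 3. The dye swap of replicate 2 changed it by -0.02 (Cy5 minus Cy3), a smaller size of change than that of most probes: only 4.51% changed as little or less. The mean was 1.07 ± 0.17 (SD, n = 3), or 2.10-fold higher in endosperm (limma adjusted p = 0.00108; 95% interval 1.68-fold to 2.61-fold). Its mean was at or above that of 88.5% of the compared probes.

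WRKY29 (AT4G23550) is a group IIe factor known downstream of the kinase cascade that bacterial flagellin sets off. Its ratios went with the dye: 0.18 in replicate 1 and -0.08 in replicate 2 where endosperm carried Cy3, and 1.28 in replicate 2 and 0.51 in replicate 3 where it carried Cy5. Both Cy5 arrays lay above both Cy3 arrays. The mean was 0.43 ± 0.22 (SD, n = 3), or 1.35-fold higher, and passed narrowly (limma adjusted p = 0.0398; 95% interval on the log2 scale 0.088 to 0.77). The SD of the replicates takes the mean of the 2 arrays of replicate 2 and so does not show that these 2 arrays of the same RNAs differed by 1.36, a size that 98.6% of the compared probes did not exceed. The call was lost when replicate 2 (0.34, adjusted p = 0.228) or replicate 3 (0.39, adjusted p = 0.144) was left out, after median centring of the arrays (0.34, adjusted p = 0.0918) and where only the Cy3 arrays were used (0.05, adjusted p = 0.837). Where only the Cy5 arrays were used the mean was 0.90.

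WRKY20 (AT4G26640) is a group I factor, with a pair of WRKY domains. It was at 0.65 in replicate 1, at -0.04 and -0.45 in replicate 2 (Cy3 and Cy5), and at -0.82 in replicate 3. The replicates disagreed in sign, and the SD of 0.74 was at or above that of 96.3% of the probes. The mean of -0.14 did not pass (limma adjusted p = 0.693), and its 95% interval on the log2 scale ran from -0.82 to 0.55, so these arrays leave both a higher and a lower level possible. From the Cy5 arrays alone WRKY20 passed as lower (-0.64, adjusted p = 0.0214), whereas the Cy3 arrays gave 0.31 (adjusted p = 0.264).

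**Figure D2:**
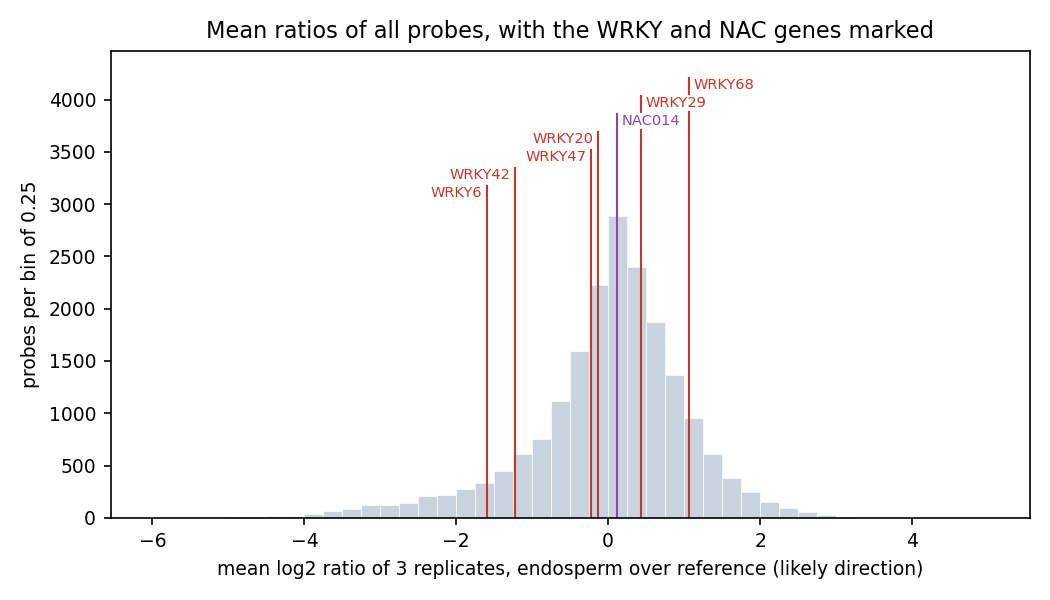
Mean log2 ratio of the 3 replicates (endosperm over reference, likely direction; x axis) of all 19449 compared probes, as the number of probes per bin of 0.25 (y axis), with vertical lines at the 6 WRKY genes (red) and NAC014 (purple). WRKY6 and WRKY42 lie toward the lower end, at -1.60 and -1.23, and WRKY68 lies toward the upper end, at 1.07. The other 4 genes lie in the central part of the distribution.

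The dye was followed across the members because the ratios of WRKY29 and WRKY20 moved with it in opposite directions. With a dye term on the 4 arrays taken as independent, the Cy5 minus Cy3 difference was 0.85 for WRKY29 (limma adjusted p = 0.477, unadjusted p = 0.0306) and -0.94 for WRKY20 (adjusted p = 0.410, unadjusted p = 0.0190). By limma 0 of all compared probes passed for this term after adjustment, and 1828 (9.40%) had an unadjusted p under 0.05. The term was 0.44 for WRKY6 (unadjusted p = 0.0630), 0.21 for WRKY47, 0.05 for WRKY42, -0.11 for WRKY68 and -0.27 for NAC014. Dye and replicate are partly mixed here, since replicates 1 and 3 each carried 1 dye, so in these ratios a dye effect and a difference between the samples cannot be told apart outside replicate 2.

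The calls of WRKY6, WRKY42 and WRKY68 held in each of the 10 other fits made for them, which left out a replicate, took 1 dye alone, centred the arrays, treated the dye swap in other ways or tested against a fold change of 1.5. Across these fits the mean ranged from -1.81 to -1.37 for WRKY6, from -1.41 to -1.12 for WRKY42 and from 0.98 to 1.16 for WRKY68. Their highest adjusted p values, all against the fold change of 1.5, were 0.00291, 0.0176 and 0.0239. WRKY47 and NAC014 passed in none of their 10 fits, WRKY20 passed in 1, and WRKY29 in 3.

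**Figure D3:**
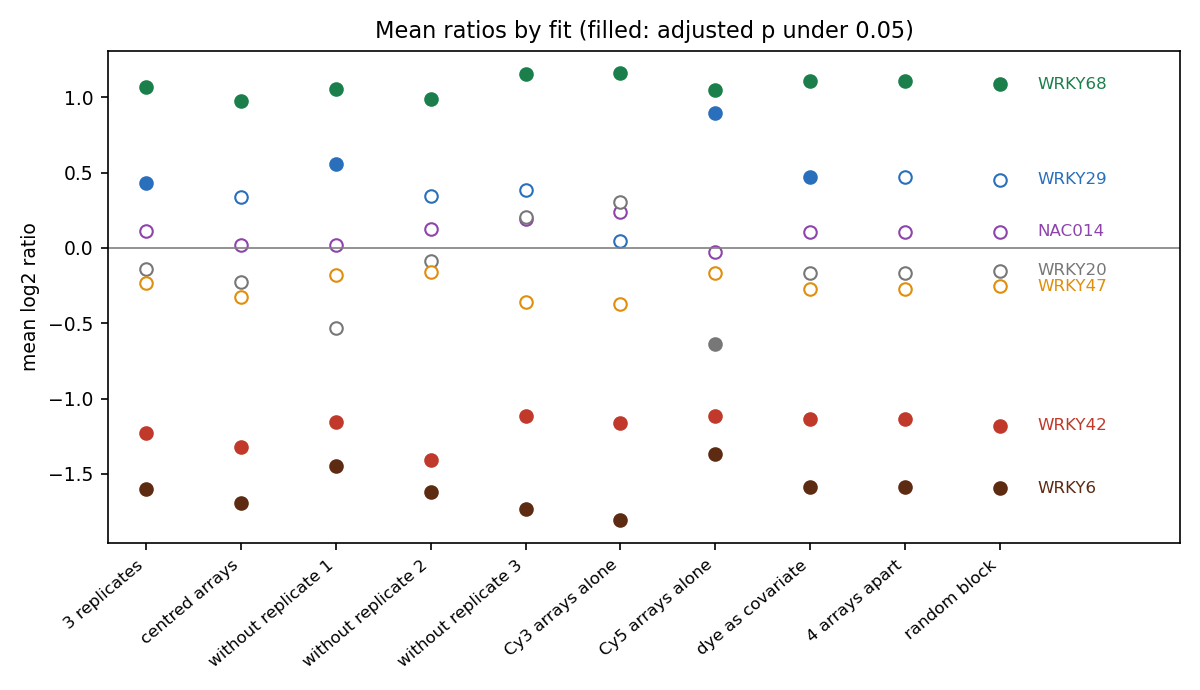
Mean log2 ratio (y axis) of each WRKY gene and NAC014 in the fit of 3 replicates and in 9 other fits (x axis); filled points have a limma adjusted p under 0.05 and open points do not. The points of WRKY68, WRKY42 and WRKY6 are filled throughout and stay within a narrow band, whereas WRKY29 and WRKY20 move most on the arrays of a single dye.

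NAC014 (AT1G33060), the 1 NAC gene measured, belongs to the NAC factors with a predicted transmembrane segment and is also called NTL2. Its log2 ratio was 0.29 in replicate 1, 0.19 and -0.01 in replicate 2 (Cy3 and Cy5), and -0.04 in replicate 3. All arrays were near the reference, with the Cy3 arrays slightly above 0 and the Cy5 arrays slightly below it. The mean of 0.11 ± 0.17 (SD, n = 3) equalled the median of all probes to 2 decimals and did not pass (limma adjusted p = 0.488). The 95% interval on the log2 scale, from -0.21 to 0.43, leaves out a change of 1.5-fold in either direction. With 1 gene, the NAC family as a whole was not described by these arrays.

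No MYB gene met the symbol rule. MYBC1 (AT2G40970) encodes a MYB-related factor known from freezing tolerance, and its symbol has a letter between MYB and the number. It was at 0.59 in replicate 1, at -0.70 and -0.51 in replicate 2, and at -0.53 in replicate 3. Replicate 1 stood apart in sign from the other arrays. Over replicates 2 and 3 alone the mean of MYBC1 was -0.57, a choice made after the values were seen. With replicate 1 included the mean is less low. MYBC1 was not on the gene lists, and no call is given for it. KUA1 (MYBH, AT5G47390), a MYB-related factor known from leaf growth and the 1 measured gene of a list of other MYB-related factors, was at 0.63, 0.41, 0.71 and 0.27 on the arrays in the same order, so all were above 0. Its mean of 0.49 ± 0.19 (SD, n = 3; limma adjusted p = 0.0226) passed, but the call was lost when replicate 1 (adjusted p = 0.0536) or replicate 2 (adjusted p = 0.133) was left out, from the Cy5 arrays alone (adjusted p = 0.0541) and against a fold change of 1.5.

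A pair of WRKY probes fell outside the rule because values were missing. WRKY22 (AT4G01250), a group IIe relative of WRKY29 that is known in the same kinase pathway, had no value in replicate 1. It was at 1.60 and 1.62 in replicate 2 (Cy3 and Cy5) and at 2.09 in replicate 3, each above every value of the 6 WRKY genes of the rule. In a fit over the 20633 probes with values on these 3 arrays, which was added after the values were seen, its mean was 1.85, or 3.61-fold higher in endosperm (limma adjusted p = 0.000834, n = 2, 95% interval on the log2 scale 1.43 to 2.27). In that fit 31.5% of probes were called higher, and 97.7% had a mean at or below that of WRKY22. WRKY41 (AT4G11070), a group III gene known from seed dormancy, had no value on any array. A relative under another name, ZAP1 (WRKY1, AT2G04880), a group I factor, was at 1.02 in replicate 1 and between -0.06 and 0.11 on the other arrays, and its mean of 0.33 ± 0.60 (SD, n = 3) did not pass (limma adjusted p = 0.268). Without replicate 1 it was at -0.01.

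The gene IDs place WRKY20, WRKY29, WRKY42 and WRKY47 on chromosome 4, WRKY6 and NAC014 on chromosome 1 and WRKY68 on chromosome 3. Of the 14 genes directly beside the 7 members in the RefSeq table's order, 7 were measured, of which 5 were higher in endosperm, 0 were lower and 2 did not pass (limma, as above). Over all probes 32.0% were called higher and 25.5% lower, and with so few neighbours the count is given as a description only. WRKY42 and WRKY47, at -1.23 and -0.23, each lay next to a gene that was far higher in endosperm: AT4G04460 was at 1.99 ± 0.15 and AT4G01730 at 1.90 ± 0.15 (SD, n = 3). Beside WRKY29, AT4G23540 was at 0.88 ± 0.07 with no dye difference of the kind seen in WRKY29: its 4 arrays lay between 0.82 and 0.96. WRKY6 lay beside AT1G62290, at 0.33 ± 0.0049 (SD, n = 3; not passed, adjusted p = 0.0501).

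Partners, upstream kinases, targets and relatives of the 3 families were described from 10 lists of gene symbols. Of 252 listed symbols, 13 genes were measured on all 4 arrays, of which 2 were higher in endosperm, 4 were lower and 7 did not pass, where 32.0% of all probes were called higher and 25.5% lower. Their median log2 ratio was 0.10, beside 0.11 over all probes. The lists are thin, and none can stand for its pathway. The 4 that were lower included the largest differences.

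For the WRKY family, 1 of 39 listed VQ proteins was measured: IKU1, a VQ protein of the HAIKU pathway of seed size, at -0.18, 0.18, 0.41 and 0.19 on the 4 arrays, with a mean of 0.10 ± 0.25 (SD, n = 3; limma adjusted p = 0.567). Of 5 HAIKU pathway genes 3 were measured and 1 was higher, where 32.0% of all probes were called higher. IKU1 and IKU2 were also among the 10 endosperm markers that set the numerator, so their signs are not independent of that choice. IKU2, a receptor kinase, was at 1.04 in replicate 1 and between 0.20 and 0.34 on the other arrays, with a mean of 0.55 ± 0.43 (SD, n = 3; limma adjusted p = 0.0485). Its call was lost when replicate 1 (0.30, adjusted p = 0.0993) or replicate 2 (adjusted p = 0.0626) was left out and after median centring of the arrays (adjusted p = 0.0756), from the Cy5 arrays alone (0.27, adjusted p = 0.135) and against a fold change of 1.5. SHB1, which acts upstream of IKU2 and MINI3, was at 0.57 in replicate 1, at 0.39 and -0.19 in replicate 2 (Cy3 and Cy5), and at 0.22 in replicate 3. Its mean of 0.30 ± 0.24 (SD, n = 3) did not pass (limma adjusted p = 0.123). It was 0.16 when replicate 1 was left out, 0.48 from the Cy3 arrays and 0.014 from the Cy5 arrays, and passed in none of its 10 other fits. MPK8, the 1 measured of 31 listed mitogen-activated protein kinases and their activators, was at 0.57 ± 0.54 (limma adjusted p = 0.0666), with 1.18 in replicate 3 and at most 0.36 on the other arrays. Of 22 genes of salicylate signalling and defence 2 were measured: SAG101, a partner of EDS1 in immunity, was lower in endosperm, between -0.90 and -0.50 on the 4 arrays (mean -0.71 ± 0.17, SD, n = 3; limma adjusted p = 0.00525; not passed against a fold change of 1.5, adjusted p = 0.499), and the defensin PDF1.2 was at 0.07 ± 0.11 and did not pass.

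For the MYB family, TRY, a single-repeat MYB protein that competes with R2R3 MYB factors for bHLH partners and represses trichome fate, was the 1 measured of 15 listed partners. It was at -3.74 in replicate 1, at -2.51 and -3.11 in replicate 2 and at -3.62 in replicate 3, all far below 0, or 10.5-fold lower in endosperm on average (mean -3.39 ± 0.51, SD, n = 3; limma adjusted p = 0.000157). BCAT4, a methionine transaminase that opens the synthesis of aliphatic glucosinolates, which is controlled by MYB28 and its relatives, was at -5.34 in replicate 1 and between -3.95 and -3.36 on the other arrays (mean -4.23 ± 1.0, SD, n = 3; 18.7-fold lower, limma adjusted p = 0.000348). It was the 1 measured of 17 glucosinolate genes. The flavonoid genes DFR and BAN, the 2 measured of 24, were at 0.15 ± 0.27 and -0.39 ± 0.28 and did not pass (limma adjusted p = 0.433 and 0.0677). BAN passed as lower in 6 of its 10 other fits: after median centring (adjusted p = 0.0324), when replicate 1 was left out (adjusted p = 0.0207), in the fit with a dye covariate (adjusted p = 0.0181), from the Cy5 arrays alone (adjusted p = 0.0237), and with replicate 2 as a random block (adjusted p = 0.0347) or as separate samples (adjusted p = 0.0228).

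For the NAC family, whose secondary wall regulators switch on xylan, cellulose and lignin genes, 1 of 23 listed wall genes was measured. IRX15, which acts in xylan synthesis, was at -3.79 in replicate 1, at -2.58 and -2.25 in replicate 2 and at -2.53 in replicate 3. Every array was far below 0, and replicate 1 was the lowest, as for BCAT4 and TRY. The mean was -2.91 ± 0.76 (SD, n = 3), or 7.52-fold lower in endosperm (limma adjusted p = 0.000525). TRY, BCAT4 and IRX15 were lower together with the silique wall marker ALC, and the part of other tissues in the reference RNA in these ratios, as in those of WRKY6 and WRKY42, was not tested.

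**Figure D4:**
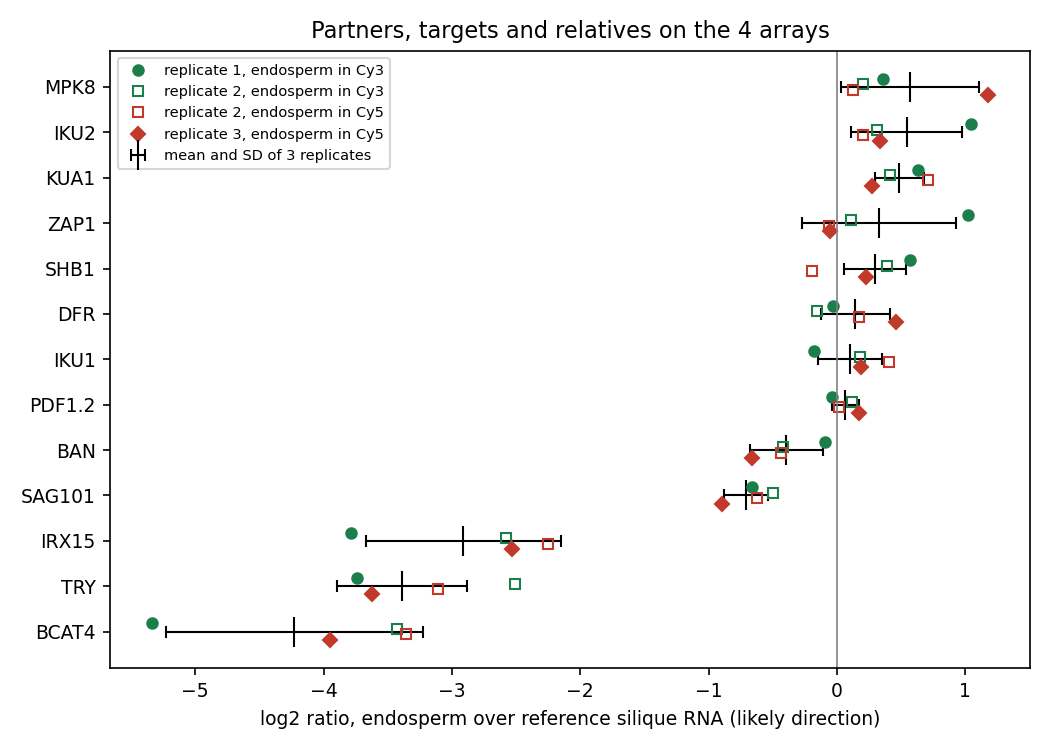
Log2 ratios (endosperm over reference, likely direction; x axis) of the 13 measured partners, targets and relatives on the 4 arrays, with the mean and SD of the 3 replicates as black bars, ordered by mean. BCAT4, TRY and IRX15 lie below -2 on all arrays and SAG101 lies below 0, while the other 9 genes have means between -0.39 and 0.57, with single high points of replicate 1 (IKU2, ZAP1) and replicate 3 (MPK8).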

How the data were processed

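The deposited values are log ratios of the 2 channels of each array, taken as log2: they have both signs and a mean close to 0 on each array. Per the labels' protocols, RNA was amplified in 2 rounds of in vitro transcription and coupled to Cy dyes, which can alter proportions between transcripts. The sources used here do not give the scanner, background correction, normalization, log base or numerator. No intensities were used, so dim spots could not be filtered, and precision is limited by how few arrays there are.

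The dye-swapped pair of arrays of replicate 2 was averaged to 1 value (n = 3). An intercept-only model was fitted per probe with limma 3.58.1 (R 4.3.3), with moderated two-sided tests against 0 and Benjamini-Hochberg adjustment over 19449 probes (adjusted p under 0.05). The script was first tested on simulated data. The test leaves out the spread of the single reference RNA. Intervals are 95% intervals from the same moderated fit. The numerator was set from the sign of the endosperm marker median on each array.

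The members and the gene lists were chosen with earlier results of these data known. Named are all 7 members and, from each list, up to 3 genes that passed; list genes that did not pass, WRKY22, WRKY41, MYBC1 and the neighbours were named after their values were seen. List symbols were matched to the platform's table, then to RefSeq symbols and synonyms. The probe with the symbol CHI was left out of the flavonoid list because its locus encodes a chitinase. RefSeq (TAIR10.1) served for names and gene order only.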

Additional observations from a re-analysis of the deposited data

How the results depend on the processing

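The number of WRKY genes called higher was 2, and it was 1 with each array centred on its median, on the Cy3 arrays alone, with the 4 arrays as 4 samples, with replicate 2 as a random block (correlation 0.36) and against a fold change of 1.5; leaving out each replicate in turn gave 1 to 2. WRKY29 was the gene lost in each case. The WRKY median of -0.19 was -0.40 on the Cy5 arrays alone and between -0.36 and -0.077 when a replicate was left out. Signs turned, none of them of a called value, for WRKY20 (0.31 from the Cy3 arrays, -0.53 to 0.20 with a replicate left out), NAC014 (-0.029 from the Cy5 arrays), ZAP1 (-0.057 from the Cy5 arrays, -0.014 to 0.52 with a replicate left out), DFR (-0.094 from the Cy3 arrays, -0.011 to 0.23 with a replicate left out) and PDF1.2 (-0.024 with centred arrays). The causes were not tested. The count of WRKY genes called lower was 2, or 3 on the Cy5 arrays alone, and the NAC counts were 0 under every alternative run. MYB, with 0 members, gave no value under any setting. Over all probes, 6231 were higher and 4957 lower, against 5415 and 5552 with centred arrays, which shifts the median of all probes from 0.11 to 0.02. No paired analysis was possible because there is 1 group of endosperm samples, measured as ratios against 1 reference RNA.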
